A study of Mus musculus with 24 samples.

Results

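Runx1, Ncam1, Gadd45a, Hdac4, Dach2 and Sema6c are regulators and effectors of the response of skeletal muscle to loss of its nerve, and are described here in mice whose muscles lack nebulin. They were chosen by name with earlier results of these data known, and so were the gene lists used below. Counts of called genes are therefore set beside the shares of all genes as description only. The 6 are among the 19938 genes that the arrays read through a probe set of a single gene symbol. Each gene was read by its probe set of highest mean on the 24 arrays. All 6 passed the filter on dim signals. Messenger RNA was measured in quadriceps and soleus of male mice aged 40 to 42 days, of mixed background, given in the labels as C57BL/6J with 1219S6/SvEvTac. Every mouse carried the conditional allele of Neb in homozygous form, the gene of nebulin, a giant protein of the sarcomere's thin filaments. The conditional knockout (cKO) mice also carried a hemizygous MCK-Cre transgene, which the labels call muscle-specific, and the control mice lacked it, so that the Cre itself differed between the groups along with nebulin. Quadriceps control, quadriceps cKO, soleus control and soleus cKO held 6 arrays each, which the labels describe as biological replicates. The submitters report that the cKO quadriceps was clearly smaller than that of controls and that the soleus was not significantly smaller. The labels name no denervated group, and nerve supply was not analysed here.

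In innervated muscle, electrical activity keeps the genes of the neuromuscular junction silent along most of the fibre. When the nerve is lost, the class IIa histone deacetylase Hdac4 accumulates and represses Dach2, a repressor of the myogenic factor myogenin (Myog). Myogenin then drives several acetylcholine receptor genes. Runx1, a DNA-binding transcription factor, is induced by denervation and limits wasting, Gadd45a is a stress-induced protein that promotes atrophy, the adhesion molecule Ncam1 spreads over the fibre surface, and Sema6c is a transmembrane semaphorin found in muscle. These roles are background and no result of these arrays.

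Median log2 intensity per array was 4.74 to 4.94, and within groups any pair of arrays had an r of 0.963 to 0.993 across genes. These medians did not overlap between quadriceps controls (4.76 to 4.86) and soleus controls (4.88 to 4.94). They overlapped between quadriceps cKO (4.74 to 4.87) and soleus cKO (4.82 to 4.89). Neb, the targeted transcript, was lower in cKO on the log2 scale by limma, by -1.45 (SE 0.11, adjusted p = 1.40e-10) in quadriceps and by -1.14 (SE 0.11, adjusted p = 2.27e-08) in soleus, with no overlap between the groups in either muscle. Summed intensities of 7 slow fibre markers were 2963 to 8534 in quadriceps controls and 26055 to 36730 in soleus controls, as the muscle labels say. Some control arrays stood apart: quadriceps control 4 had the lowest mean correlation with its group (r = 0.972), quadriceps controls 1 and 6 had slow fibre sums of 8534 and 7417 where the other 4 were at most 4178, and soleus control 1 had the highest slow (36730) and the lowest fast (23467) sum of its group. Leaving out any of the 24 arrays changed, among the 6 genes, only the calls for Hdac4 in soleus and for Dach2 between the muscles, which are given with those genes.

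Of the 6 genes 5 have promoter windows from RefSeq on GRCm38.p6 (mm10), 8 windows in all, each running from 250 bases before to 50 after a transcription start. The E-box CANNTG, which reads the same on both strands and is bound by myogenin and MyoD, was found in 4 of these windows and in 72.3% of all 32851 windows of that length. Those 4 are shown, as the 250 bases before the start in 5′ to 3′ direction of the gene, because the transcripts of both factors changed in these muscles, as described below. Capitals mark the E-boxes, and binding of either factor to them was not tested.
Runx1, chr16:92826075-92826324, minus strand: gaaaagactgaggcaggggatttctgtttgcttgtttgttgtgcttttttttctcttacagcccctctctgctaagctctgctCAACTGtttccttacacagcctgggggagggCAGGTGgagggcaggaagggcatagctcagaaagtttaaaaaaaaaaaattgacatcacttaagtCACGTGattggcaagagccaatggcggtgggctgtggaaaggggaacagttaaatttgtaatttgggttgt
Gadd45a, chr6:67037408-67037657, minus strand: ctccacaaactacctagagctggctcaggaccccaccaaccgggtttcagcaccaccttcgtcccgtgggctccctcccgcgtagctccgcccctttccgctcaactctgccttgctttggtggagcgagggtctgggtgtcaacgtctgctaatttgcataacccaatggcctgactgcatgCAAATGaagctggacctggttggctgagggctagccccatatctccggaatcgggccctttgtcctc
Dach2, chrX:113297260-113297509, plus strand: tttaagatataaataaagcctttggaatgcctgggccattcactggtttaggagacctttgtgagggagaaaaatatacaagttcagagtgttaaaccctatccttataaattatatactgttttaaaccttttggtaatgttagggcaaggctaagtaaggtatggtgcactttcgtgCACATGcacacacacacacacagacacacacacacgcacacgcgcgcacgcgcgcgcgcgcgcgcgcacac
Sema6c, chr3:95164089-95164338, plus strand: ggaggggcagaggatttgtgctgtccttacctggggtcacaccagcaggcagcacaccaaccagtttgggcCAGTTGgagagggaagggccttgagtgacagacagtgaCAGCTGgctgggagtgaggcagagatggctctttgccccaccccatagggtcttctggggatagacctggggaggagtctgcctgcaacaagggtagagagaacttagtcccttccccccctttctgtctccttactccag
The Runx1 window, at the farther upstream of its 2 starts, held 3 E-boxes, at 167, 136 and 71 bases before the start, and the Sema6c window held a further E-box 7 bases after the start. The RUNX motif TGTGGT, on either strand, was found in 16.8% of all windows. It occurred in 2 copies, 29 and 37 bases after the start shown for Runx1, and in a single copy 60 bases before the other Dach2 start. No window of the 5 genes held a MEF2 motif, the site of the factors to which Hdac4 binds (3.2% of all windows), and no found motif overlapped another. The arrays do not say from which start the transcripts came.

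The first comparison asked how the 6 genes stood in the cKO quadriceps, the muscle that was smaller. By limma, with p-values adjusted by Benjamini-Hochberg over all 15999 genes, 4 rose and 2 fell, against 40.0% of all genes called in either direction (22.3% higher, 17.7% lower). The risers were Runx1 (7.34-fold), Ncam1 (6.02-fold), Gadd45a (3.07-fold) and Hdac4 (2.09-fold), and Dach2 and Sema6c were lower. In soleus 3 rose and 2 fell, with 23.1% of all genes called (13.2% higher, 9.94% lower): Ncam1 rose 2.65-fold, Runx1 2.33-fold and Gadd45a 1.61-fold, Dach2 and Sema6c fell, and Hdac4 did not pass the test. Among the genes tested Runx1 had the 12th largest rise in quadriceps and the 114th in soleus and Ncam1 the 22nd and the 83rd. Arrays of control and cKO did not overlap for 4 of the 6 genes in quadriceps (16.2% of all genes) and for 3 in soleus (12.8%). In whole muscle, a change in the number of cells of a type and a change in RNA per cell cannot be told apart.

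**Figure D1:**
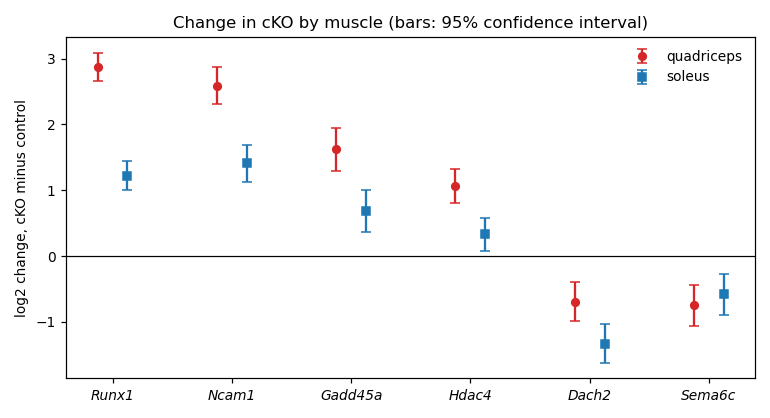
Change of each gene in cKO against control on the log2 scale (y axis), with 95% confidence intervals from the limma fit, in quadriceps (red circles) and soleus (blue squares). Runx1, Ncam1, Gadd45a and Hdac4 lie above 0 and higher in quadriceps, from 2.88 for Runx1 to 1.06 for Hdac4, while Dach2 and Sema6c lie below 0 in both muscles.

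Hdac4 (Entrez gene 208727, chromosome 1, positions 91928779 to 92195702) encodes the deacetylase that links muscle activity to junction genes. Its log2 intensity in quadriceps controls was 7.51 at the lowest, 8.14 at the median and 8.53 at the highest array. In quadriceps cKO the corresponding values were 9.04, 9.16 and 9.32. Every cKO array was above every control array, and the cKO arrays were closer together (SD 0.09) than the controls (SD 0.37). The change was 1.06 (SE 0.12, adjusted p = 1.61e-07 by limma). Soleus controls read 7.79, 8.21 and 8.50, and soleus cKO 8.46, 8.49 and 8.67, and these groups overlapped through control 2 (8.50) alone. The soleus change of 0.33 (SE 0.12, 95% confidence interval 0.07 to 0.58) had an adjusted p of 0.0568 in limma. With same-numbered arrays of the 2 muscles as a block, taken as 1 animal, that p was 0.0436. It ranged from 0.0172 to 0.169 when single arrays were left out, and passed without quadriceps control 2 (0.0387), quadriceps control 4 (0.0172) or soleus control 2 (0.0283). A second probe set of Hdac4 gave 1.22 (SE 0.16, adjusted p = 1.37e-06) in quadriceps and 0.31 (SE 0.16, adjusted p = 0.192) in soleus. Control muscles differed by 0.09 (95% confidence interval -0.16 to 0.35, adjusted p = 0.605), a value whose sign changed with median centring, the second probe set, array weights and without quadriceps control 4.

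Dach2 (Entrez gene 93837, chromosome X, positions 113297496 to 113836386), a transcriptional co-repressor that holds down myogenin in innervated muscle, was read near the lower end of the scale. It lay above the dim limit, the 30th percentile of all probe sets of an array (3.51 to 3.72), on 10 of 24 arrays. Soleus controls held its highest values, 3.84 at the lowest, 4.48 at the median and 4.92 at the highest. Quadriceps controls read 3.35, 3.79 and 4.06, with 2 of 6 arrays at or under the dim limit. All 12 cKO arrays were at or under it, at 2.78 to 3.39 in quadriceps and 3.02 to 3.37 in soleus. In soleus the control and cKO arrays did not overlap, and in quadriceps they did. Since the cKO groups give only a bound, Dach2 was at least 1.77-fold lower in soleus cKO and at least 1.13-fold lower in quadriceps cKO. Neither bound was itself tested. The limma tests were on the changes as read, -1.33 (adjusted p = 9.78e-08) in soleus and -0.70 (adjusted p = 0.000377) in quadriceps. Those changes use the cKO readings at or under the dim limit. These bounds set the control mean against the higher of the dim limit and the gene's own value on each cKO array. The related Dach1 read 5.36, 6.12 and 6.50 in soleus controls and 4.95, 5.38 and 5.91 in soleus cKO. Its change there was -0.60 (SE 0.22, adjusted p = 0.0458), and this call was lost without any of 10 single arrays, with median centring, without the filter and with a robust prior.

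Runx1 (Entrez gene 12394, chromosome 16, positions 92601466 to 92826074) showed the widest separation of the 6. Quadriceps controls read 5.61 at the lowest, 5.83 at the median and 5.95 at the highest, and quadriceps cKO 8.49, 8.64 and 8.87. Soleus controls lay at 6.03, 6.47 and 6.62, and soleus cKO at 7.31, 7.61 and 7.86. None of the 4 groups overlapped with another, and the order ran from quadriceps controls over soleus controls and soleus cKO to quadriceps cKO. The change was 2.88 (SE 0.11, adjusted p = 1.15e-16 by limma) in quadriceps and 1.22 (SE 0.11, adjusted p = 2.28e-09) in soleus. Soleus was above quadriceps by 0.59 (SE 0.11, adjusted p = 0.000104) in controls and below it by -1.07 (SE 0.11, adjusted p = 3.14e-08) in cKO. Cbfb, the partner that strengthens the binding of RUNX proteins to DNA, went the other way in quadriceps. It read 8.66, 8.89 and 8.95 in controls and 7.92, 8.11 and 8.36 in cKO, a change of -0.73 (SE 0.09, adjusted p = 2.57e-07), against 0.11 (SE 0.09, adjusted p = 0.392) in soleus. The difference between these changes passed the test (-0.85, SE 0.12, adjusted p = 6.19e-05).

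Gadd45a (Entrez gene 13197, chromosome 6, positions 67035096 to 67037407) is a small stress-induced nuclear protein that in denervated muscle promotes atrophy. In quadriceps controls it read 8.01 at the lowest, 8.34 at the median and 8.73 at the highest, and in quadriceps cKO 9.47, 10 and 10.19, without overlap. Soleus levels were lower throughout, 6.52, 6.84 and 7.66 in controls and 7.16, 7.66 and 7.83 in cKO, and these groups overlapped through control 6 (7.66) alone. The highest soleus cKO array stayed under the lowest quadriceps control. The change was 1.62 (SE 0.16, adjusted p = 6.04e-09 by limma) in quadriceps and 0.69 (SE 0.16, adjusted p = 0.00170) in soleus. Of its relatives, Gadd45b fell in quadriceps, from 7.68, 8.18 and 8.49 in controls to 6.48, 6.86 and 7.03 in cKO (change -1.31, SE 0.14, adjusted p = 3.97e-08). In soleus Gadd45b changed by -0.41 (SE 0.14, adjusted p = 0.0326), a call lost when each array was centred on its median (0.0706) and without soleus control 4 or 6 or soleus cKO 1, 3 or 4 (0.0540 to 0.0935). The transcript of Atf4, a stress factor that induces Gadd45a and is regulated mostly at translation, changed by -0.26 (SE 0.09, adjusted p = 0.0256) in quadriceps. This gene was chosen after its values were seen, and its call was lost with quadriceps fitted alone (0.0839) or without quadriceps control 2 or 4 or cKO 6 (0.0652 to 0.0845).

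Ncam1 (Entrez gene 17967, chromosome 9, positions 49502129 to 49799393) encodes an adhesion molecule confined to the junction in innervated fibres and also carried by satellite cells, regenerating fibres and Schwann cells. Quadriceps controls read 6.58 at the lowest, 7.11 at the median and 7.50 at the highest, and quadriceps cKO 9.43, 9.62 and 10.05. Soleus controls read 7.81, 8.24 and 8.38, and soleus cKO 9.33, 9.50 and 10. No cKO array overlapped with a control array. The change was 2.59 (SE 0.14, adjusted p = 9.14e-14 by limma) in quadriceps and 1.41 (SE 0.14, adjusted p = 1.90e-08) in soleus. Control soleus was above control quadriceps by 1.09 (SE 0.14, adjusted p = 7.60e-07). In cKO the muscles differed by -0.09 (95% confidence interval -0.38 to 0.19, adjusted p = 0.635). St8sia2, an enzyme that adds polysialic acid to Ncam1 and was chosen here after its values were seen, rose in quadriceps by 0.97 (SE 0.11, adjusted p = 7.66e-08) with no overlap between groups (4.54 to 5.06 in controls, 5.33 to 6.02 in cKO). In soleus its change was 0.24 (SE 0.11, adjusted p = 0.113), which passed with quantile normalization (0.29, adjusted p = 0.0414) and with array weights (0.26, adjusted p = 0.0372).

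Sema6c (Entrez gene 20360, chromosome 3, positions 95160420 to 95174050) fell in both muscles. Quadriceps controls read 7.59 at the lowest, 8.06 at the median and 8.46 at the highest, and quadriceps cKO 6.98, 7.33 and 7.72. Soleus controls read 7.41, 7.82 and 8.10, and soleus cKO 6.91, 7.17 and 7.64. The groups overlapped in each muscle, in quadriceps only through control 4 (7.59) and cKO 6 (7.72). Its change was -0.75 (SE 0.15, adjusted p = 0.000313 by limma) in quadriceps and -0.58 (SE 0.15, adjusted p = 0.00575) in soleus, 1.68-fold and 1.49-fold lower. The muscles differed by -0.28 (95% confidence interval -0.59 to 0.03, adjusted p = 0.162, and 0.0252 with the replicate number as a block) in controls and by -0.11 (-0.42 to 0.20, adjusted p = 0.603) in cKO.

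**Figure D2:**
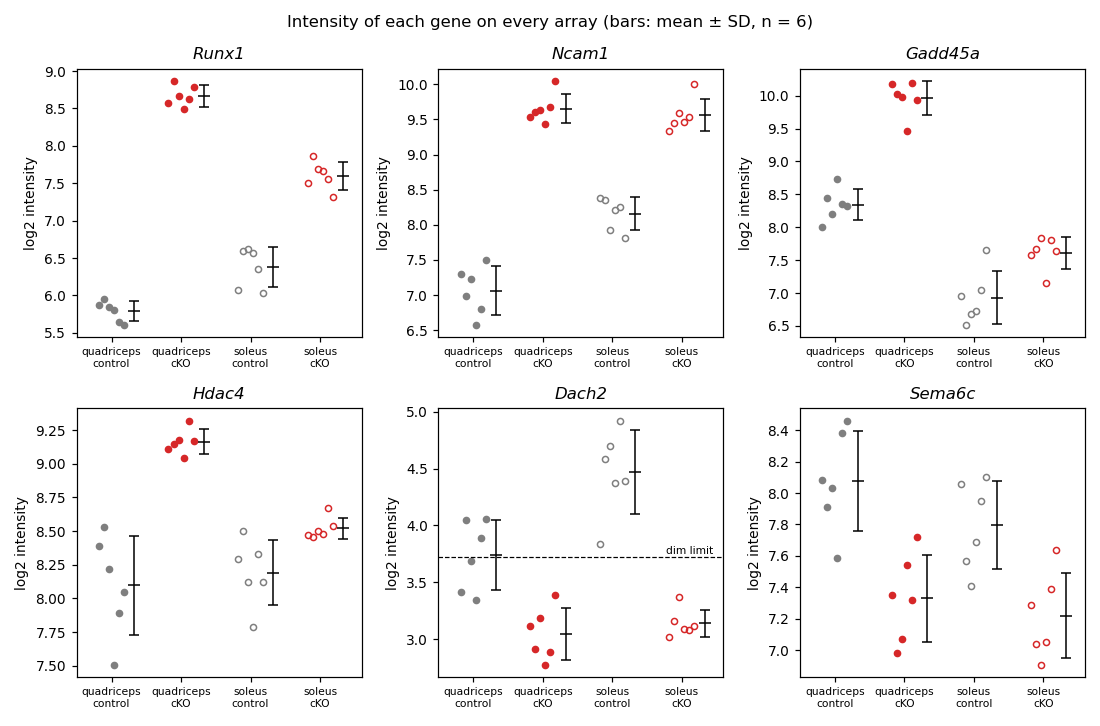
Log2 intensity (y axis) of the 6 genes on every array, by muscle and genotype (controls grey, cKO red, quadriceps filled, soleus open), with mean ± SD of 6 arrays beside the points. Runx1 and Ncam1 show no overlap between control and cKO arrays, and all 12 cKO arrays of Dach2 lie under the dashed line, the highest dim limit of any array (3.72).

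The next comparison asked whether the cKO change differed between the muscles, as the quadriceps change minus the soleus change. For 5 of the 6 genes it passed the test, where 12.3% of all genes did (7.39% higher, 4.89% lower). The difference was 1.66 (SE 0.15, adjusted p = 5.21e-08 by limma) for Runx1, 1.18 (SE 0.20, adjusted p = 0.000225) for Ncam1, 0.93 (SE 0.22, adjusted p = 0.00620) for Gadd45a and 0.73 (SE 0.18, adjusted p = 0.00682) for Hdac4, each a larger rise in quadriceps. For Dach2 it was 0.63 (SE 0.20, adjusted p = 0.0408), a larger fall in soleus as read. That value rests on cKO readings under the dim limit in both muscles, so which fall was larger cannot be told. Its call was lost without any of 14 single arrays (adjusted p up to 0.0776). For Sema6c it was -0.17 (95% confidence interval -0.61 to 0.27, adjusted p = 0.663). With the muscles of an animal as a block the call was the same for each of the 6, while the count over all genes rose from 1966 to 2952.

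Quadriceps and soleus arrays of the same genotype and number were paired as if from 1 animal, since they deviated together from their group means. The labels do not state this, and they give quadriceps cKO 4 and soleus cKO 4 different ages. Same-numbered arrays of different genotype, which cannot be 1 animal, also correlated in part. For quadriceps control with soleus cKO, deviations correlated over 0.1 in 4 of 6 pairs. For quadriceps cKO with soleus control this held in 1 of 6. Whether matching numbers mean 1 animal was not tested. Runx1 was higher in soleus in 6 of 6 control pairs (0.59 ± 0.23, SD, n = 6) and lower in 6 of 6 cKO pairs (-1.07 ± 0.22, SD, n = 6). Ncam1 was higher in soleus in 6 of 6 control pairs (1.09 ± 0.50, SD, n = 6) and in 1 of 6 cKO pairs (-0.09 ± 0.09, SD, n = 6). Hdac4 was higher in soleus in 3 of 6 control pairs and in 0 of 6 cKO pairs, where the difference ran narrowly from -0.69 to -0.56. Gadd45a was lower in soleus in all 12 pairs, by -0.66 to -2.01 in controls and by -2.15 to -2.60 in cKO. By limma, 4 of the 6 genes differed between control muscles (33.5% of all genes called, 15.2% higher and 18.3% lower in soleus) and 3 between cKO muscles (28.8% called, 11.9% higher and 16.9% lower). All arrays of the muscles lay apart for 3 genes in controls (11.7% of all genes) and for 3 in cKO (15.9%). Gadd45a had the largest of these differences among the 6, -1.42 (SE 0.16, adjusted p = 7.97e-08) and -2.35 (SE 0.16, adjusted p = 2.54e-11). These comparisons share arrays with those of cKO against control.

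**Figure D3:**
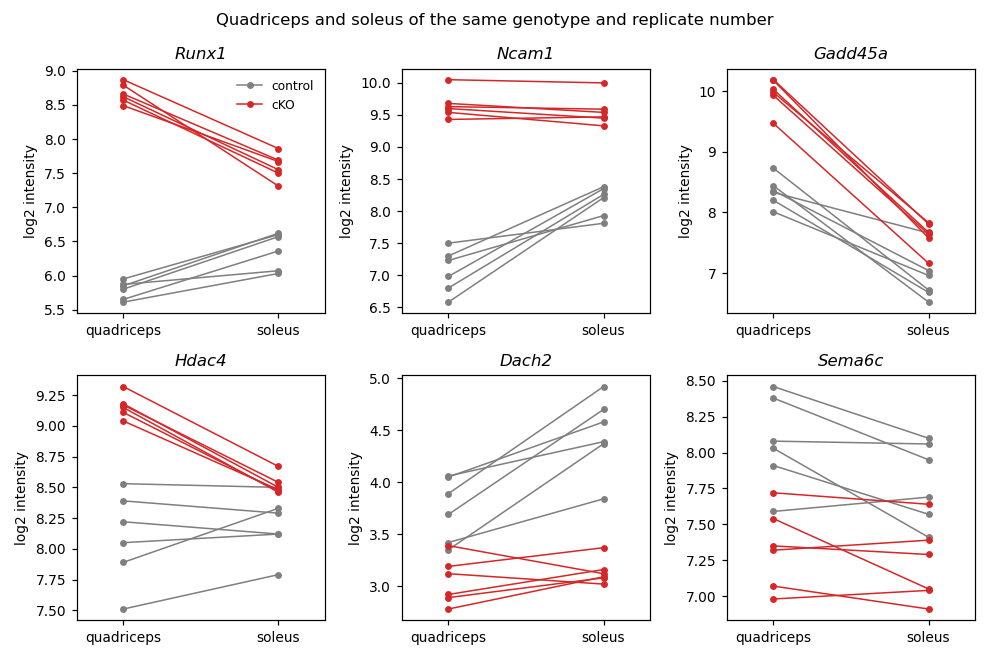
Log2 intensity (y axis) in quadriceps and soleus, with lines joining arrays of the same genotype and replicate number (controls grey, cKO red, 6 lines each). The lines of Runx1 rise towards soleus in all 6 control pairs and fall in all 6 cKO pairs, and those of Gadd45a fall in all 12.

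Genes around Hdac4, Dach2 and myogenin rose in part. Of 15 such genes read by the arrays 9 rose and 1 fell in quadriceps (median 0.28, against -0.01 over all genes), where 22.3% of all genes rose and 17.7% fell. In soleus 6 rose and 3 fell (median 0.15, against -0.02), where 13.2% of all genes rose and 9.94% fell. Myogenin, the target that Dach2 represses, rose by 2.54 (SE 0.18, adjusted p = 2.26e-11 by limma) in quadriceps and by 1.81 (SE 0.18, adjusted p = 2.18e-08) in soleus, with no overlap in either. Its log2 intensity was 5.67, 5.96 and 6.25 in quadriceps controls and 8.33, 8.49 and 8.83 in cKO. The difference between the muscles was 0.73 (SE 0.25, adjusted p = 0.0589, and 0.0266 with the animal as a block). MyoD (Myod1), its relative in muscle differentiation, rose by 1.06 (adjusted p = 8.33e-05) and 0.71 (adjusted p = 0.00677).

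The acetylcholine receptor subunits differed among themselves. In quadriceps the fetal subunit Chrng rose by 1.87 (SE 0.10), Chrnd by 1.77 (SE 0.10), Chrna1 by 1.77 (SE 0.10) and Chrnb1 by 1.04 (SE 0.12), all without overlap, while the adult subunit Chrne was at 0.15 (SE 0.11, adjusted p = 0.274 by limma). In soleus Chrnb1 rose most, by 1.48 (SE 0.12), followed by Chrnd (0.74, SE 0.10), Chrne (0.61, SE 0.11) and Chrng (0.36, SE 0.10). Chrna1 there was at 0.01 (SE 0.10, adjusted p = 0.970), with control arrays at 7.87, 7.99 and 8.50 and cKO arrays at 7.82, 8.05 and 8.29. The changes of Chrna1 (1.76, SE 0.15, adjusted p = 1.35e-08), Chrng (1.51, SE 0.15, adjusted p = 1.48e-07) and Chrnd (1.03, SE 0.15, adjusted p = 3.58e-05) were larger in quadriceps. That of Chrne was larger in soleus (-0.46, SE 0.15, adjusted p = 0.0496), a call lost without any of 15 single arrays, without the filter and with age in the model, and that of Chrnb1 gave -0.45 (SE 0.17, adjusted p = 0.0748, and 0.0277 with the animal as a block). Ubiquitin ligases of wasting muscle that myogenin is known to induce after denervation were not called higher. Trim63 was at -0.18 (SE 0.17, adjusted p = 0.417) and Fbxo32 at -0.05 (SE 0.15, adjusted p = 0.820) in quadriceps, and in soleus Fbxo32 fell by 0.58 (SE 0.15, adjusted p = 0.00625) and Trim63 by 0.50 (SE 0.17, adjusted p = 0.0314). The soleus call of Trim63, a gene named after its values were seen, was lost with median centring (0.0536) and without soleus control 2 or 3 or soleus cKO 1, 4 or 5 (0.0530 to 0.107).

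Of 19 other genes known from denervated muscle or the junction 12 rose and 3 fell in quadriceps (median 0.46), and 8 rose and 3 fell in soleus (median 0.27), beside the same shares of all genes. By size these were led by the embryonic myosin Myh3, which rose by 5.38 (SE 0.40) in quadriceps and 3.93 (SE 0.40) in soleus, and by the stretch-responsive Ankrd1 (4.02, SE 0.28, and 3.16, SE 0.28). The small GTPase Rrad rose by 3.47 (SE 0.31) and 1.19 (SE 0.31), and the calcium pump inhibitor Sln by 3.21 (SE 0.23) and 2.08 (SE 0.23). The intermediate filament protein nestin (Nes), found in young fibres and beneath the junction, rose by 1.85 (SE 0.17) and 1.73 (SE 0.17), with no overlap in either muscle. The neonatal myosin Myh8 rose by 2.81 (SE 0.17) and 1.14 (SE 0.17), and this difference passed the test (1.66, SE 0.24, adjusted p = 5.81e-05 by limma). Myosin heavy chains are close in sequence, and whether the probes of Myh3 and Myh8 also read each other's transcripts was not tested. Mstn, named after its values were seen, was lower in quadriceps cKO (5.24, 5.92 and 7.13) than in controls (7.48, 8.87 and 9.24), without overlap. Its soleus groups overlapped, at 3.31, 4.42 and 4.76 in controls and 3.20, 3.43 and 3.81 in cKO. The soleus cKO values lay around the dim limit (3.51 to 3.72). The junction genes Rapsn, Dok7, Lrp4, Agrn and Colq, also named afterwards, overlapped between control and cKO in both muscles. Overlap is not a test of change, and limma results of these genes are not given here. Their quadriceps medians in controls and cKO were 6.64 and 6.90 for Rapsn, 7.38 and 7.56 for Dok7, and 6.35 and 6.75 for Lrp4. Those of Agrn were 5.88 and 6.33, and those of Colq 6.16 and 6.35. In soleus the medians were 6.37 and 6.47 for Rapsn, 7.65 and 8.06 for Dok7, and 6.77 in both for Lrp4. There Agrn read 6.26 and 6.23, and Colq 6.53 and 6.32. Utrn overlapped in neither muscle and Ache in quadriceps only.

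Paralogues and partners of the 6 genes moved in both directions. Of 15 read and kept, 5 rose and 3 fell in quadriceps (median 0.04), where 22.3% of all genes rose and 17.7% fell. In soleus none rose and 3 fell (median 0.03), against 13.2% and 9.94% of all genes. Beside the fall of Sema6c, plexins and other class 6 semaphorins rose in quadriceps. Plxna2 and Plxna4, receptors of class 6 semaphorins, rose by 1.0 (SE 0.14, adjusted p = 1.80e-06 by limma) and 0.84 (SE 0.12, adjusted p = 6.03e-06), and Sema6a rose by 0.97 (SE 0.16, adjusted p = 1.82e-05), all without overlap. In soleus they were at 0.30 (adjusted p = 0.114), 0.17 (adjusted p = 0.356) and -0.35 (adjusted p = 0.105). The soleus value of Plxna2 passed with soleus fitted alone (0.0465) and without quadriceps control 4 (0.0449) or soleus control 2 (0.0421), and that of Sema6a passed, as a fall, with array weights (0.0419) and with soleus fitted alone (0.0491). The differences passed for Sema6a (1.32, SE 0.22, adjusted p = 0.000255), Plxna4 (0.67, SE 0.18, adjusted p = 0.0132) and Plxna2 (0.69, SE 0.19, adjusted p = 0.0181). Sema6d fell in quadriceps by 0.28 (SE 0.10, adjusted p = 0.0231) and in soleus by 0.40 (SE 0.10, adjusted p = 0.00319). The quadriceps call of Sema6d was lost with array weights (0.0616) and without quadriceps control 1 or 6 or cKO 5 (0.0535 to 0.0545). Sema6b was also called higher in quadriceps, where its groups overlapped. That call was lost with median centring (0.22, adjusted p = 0.0627), quantile normalization (0.14, adjusted p = 0.203) and other settings. Without single arrays the change of Sema6b ranged from 0.17 to 0.26 (adjusted p 0.0242 to 0.12).

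**Figure D4:**
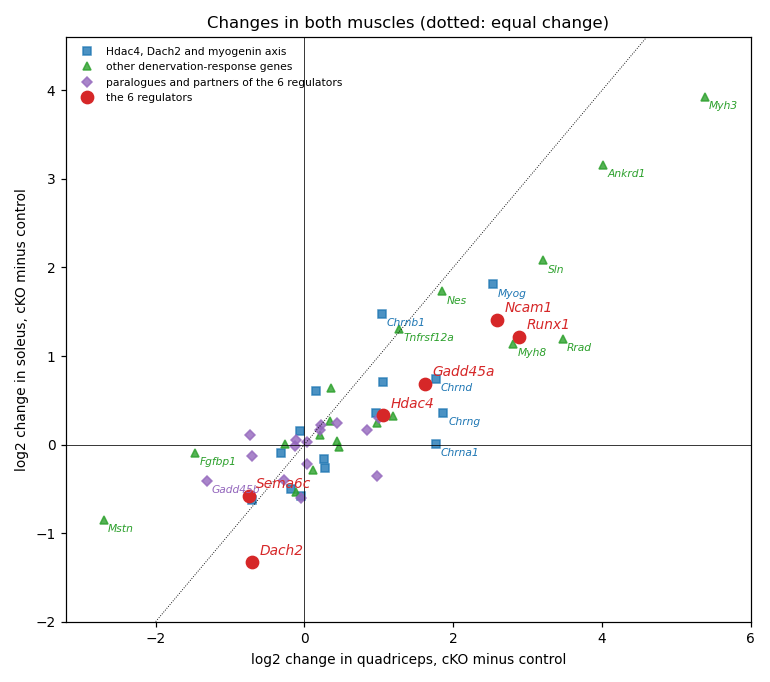
Log2 change in cKO in quadriceps (x axis) and soleus (y axis) of the 6 regulators (red circles) and of 3 lists of related genes, with the line of equal change dotted. Runx1 (2.88 and 1.22) and Ncam1 (2.59 and 1.41) lie to the right of the line, Dach2 lies below it, and Chrna1 lies on the horizontal axis at 1.77.

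Markers of other cells that can carry these transcripts were read on the same arrays. Beside the counts of all marker lists, 22.3% of all genes rose and 17.7% fell in quadriceps, and 13.2% and 9.94% in soleus. Sums weigh the brightest genes most, as Cd34 among the satellite cell genes and Dcn among the fibro-adipogenic progenitor genes. Of 9 satellite cell genes, which mark muscle stem cells that express Ncam1, 7 rose and none fell in quadriceps (median 0.40) and 3 rose in soleus (median 0.23). Their summed intensity was 919 to 1119 in quadriceps controls, 1313 to 1543 in quadriceps cKO, 1034 to 1300 in soleus controls and 1246 to 1396 in soleus cKO. Of 12 macrophage genes, cells in which Runx1 is active, 9 rose in quadriceps (median 0.58) and 8 in soleus (median 0.56), with none lower. Their sums were 832 to 1359, 1566 to 1846, 755 to 957 and 1024 to 1463 in the same order of groups. Of 5 lymphocyte genes kept, 2 rose in quadriceps (Ptprc, 0.93, and Ikzf1, 0.36, which other blood cells also express) and none in soleus. The sums of the 7 lymphocyte genes read were 112 to 124, 136 to 172, 115 to 137 and 115 to 138, and the B cell genes Cd79a and Ms4a1 were at or under the dim limit on all 24 arrays.

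Of 7 Schwann cell and nerve genes none rose in either muscle, and Sox10 fell in quadriceps by 0.27 (SE 0.09, adjusted p = 0.0157 by limma). Their sums were 246 to 293, 266 to 301, 237 to 265 and 218 to 272, and no gene of this list was under the dim limit on any array. Of 9 genes of fibro-adipogenic progenitors, 5 were higher and 1 lower in quadriceps (median 0.58), and 6 were higher in soleus (median 0.47), with sums of 4937 to 6740, 6613 to 7426, 5041 to 5918 and 5554 to 7202. Endothelial genes did not pass in quadriceps (0 of 8, median -0.09) and fell in 6 of 8 in soleus (median -0.49), with sums of 2022 to 3404, 1805 to 2497, 2637 to 3987 and 1923 to 2299. All 7 slow fibre genes rose in quadriceps (median 1.98), where sums reached 15017 to 21553 in cKO, and in soleus 2 rose and 1 fell (median 0.34). Of 8 fast fibre genes 5 fell in quadriceps (median -0.28) and 7 in soleus (median -0.75), with none higher. Their sums were 49093 to 52125 in quadriceps controls, 37510 to 43269 in quadriceps cKO, 23467 to 34255 in soleus controls and 16113 to 20379 in soleus cKO, without overlap between genotypes in either muscle. The part of these cells and fibre types in the changes of the 6 genes was not tested.

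The genes most like each regulator in pattern were ranked by Pearson's r of log2 intensity over the 24 arrays, which share the 4 groups, with r of the deviations from the group means beside it. Runx1 was most like the transport ATPase Atp13a3 (r = 0.974, deviations 0.28), the cell cycle repressor Rb1 (0.970, deviations 0.29) and Zc2hc1a (0.965, deviations 0.38). Rb1 rose by 2.04 in quadriceps and 1.07 in soleus. For Ncam1 these were Plekhh2 (0.981, deviations 0.74), the annexin Anxa4 (0.977, deviations 0.67) and Ttc9 (0.970, deviations 0.53), and Plekhh2 stood at 5.62, 7.94, 6.76 and 8.22 in quadriceps control, quadriceps cKO, soleus control and soleus cKO. Gadd45a was most like the heparan sulfate enzyme Hs6st2 (0.974, deviations 0.70), Trit1 (0.957, deviations 0.42) and the creatine synthesis enzyme Gatm (0.931, deviations 0.10).

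Hdac4 was most like Cyria (0.922, deviations 0.63), the cap-binding protein Ncbp1 (0.921, deviations 0.59) and Mdn1 (0.919, deviations 0.80). Dach2 was most like Pm20d2 (0.946, deviations 0.67), the transporter Slc15a5 (0.914, deviations 0.65) and the fatty acid oxidation enzyme Eci1 (0.898, deviations 0.26). Pm20d2, unlike Dach2, was read well above the dim limit, with group means of 7.51, 6.46, 8.18 and 6.70 in the order just given. Sema6c was most like Dele1 (0.925, deviations 0.80), the importin Ipo13 (0.916, deviations 0.76) and the mitochondrial ribosomal protein Mrpl18 (0.896, deviations 0.73). Deviations from the group means correlated at 0.28 to 0.38 for Runx1 and its 3 neighbours and at 0.73 to 0.80 for Sema6c and its neighbours.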

How the data were processed

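For each array the authors deposited an intensity per probe set. Affymetrix Expression Console, RMA and genome build mm10 are named in the submitters' processing notes, while versions and settings were not given in the sources used here. RMA as generally run draws arrays to a common distribution, so a shift shared by most genes would not be seen. The deposited intensities are linear (1.76 to 10075) and were turned to log2. The members and gene lists were chosen with earlier results of these data known, and no adjustment over a list alone was made.

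Of 35557 probe sets 21789 have 1 gene symbol in the annotation table, and symbols were updated through Entrez numbers (21698 matched). Per gene the probe set with the highest mean was used. A gene was kept if it lay above the array's 30th percentile of all probe sets on at least 6 arrays (15999 of 19938 genes). A model of 4 group means was fitted to 24 arrays with limma 3.58.1 in R 4.3.3 (lmFit, eBayes, 20 residual degrees of freedom), adjusted by Benjamini-Hochberg and called under 0.05, two-sided, after a check on simulated data. The median SE (log2) was 0.10 for a change in a muscle and 0.14 for a difference between changes, and the number of arrays limits this precision. Named genes are the 6 members, up to 6 genes per list with the smallest p in a cKO comparison and 3 genes of like pattern per member; others are marked. Runx2, Cdkn1a and Scn4a of the lists had no probe set of their own symbol, and 1 listed gene is not reported here. Groups and numbers came from the titles. Deviations from group means of quadriceps and soleus arrays with 1 genotype and number correlated at 0.16 to 0.31 in controls and 0.22 to 0.45 in cKO, all above 0.1 and highest for the matching number, and were taken as pairs, although the labels give quadriceps cKO 4 and soleus cKO 4 different ages. Control and cKO arrays of 1 muscle and number correlated over 0.1 in 3 of 6 pairs in quadriceps and 4 of 6 in soleus and were not taken as pairs. Alternatives were other scalings, filters, the second Hdac4 probe set, array weights, another prior, age, blocks, separate fits and leaving out each array, applied after seeing the data also to the listed genes. Promoter sequences are RefSeq's (GRCm38.p6), and Ncam1 has none in the table used.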

Additional observations from a re-analysis of the deposited data

Results flagged for a closer look

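The cKO change of 5 genes differed between quadriceps and soleus by the interaction test: by 1.66 for Runx1, 1.18 for Ncam1, 0.93 for Gadd45a, 0.73 for Hdac4 and 0.63 for Dach2 (quadriceps change minus soleus change, log2). The first 4 rose more in quadriceps. The fall of Dach2 as read was larger in soleus. All its cKO readings were under the dim limit, so which fall was larger cannot be told. The call for Dach2 was lost with median centring, with quantile normalization and without some single arrays.

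Single arrays stood far from the rest of their group in 2 of 28 combinations of a gene (the 6 regulators and Neb) and a group, where chance gives about 1 in 20. Gadd45a read 9.47 in quadriceps cKO 4, below the other 5 arrays, and soleus cKO 4 gave the lowest value of its group (7.16), although the labels give these arrays different ages. Hdac4 read 8.67 in soleus cKO 5, above the other 5, and quadriceps cKO 5 was also the highest of its group (9.32).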

How the results depend on the processing

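Called changes of the 6 genes kept their direction under every alternative run. Hdac4 in soleus (0.33, adjusted p = 0.0568) passed with median centring (0.37), the stricter filter (0.33), array weights (0.34), the animal as a replicate block (0.33, adjusted p = 0.0436), the replicate number as a block (0.33, adjusted p = 0.0241) and soleus fitted alone (0.33), and ranged from 0.25 to 0.39 without single arrays. The difference between muscles for Dach2 (0.63) missed with median centring (0.59) and quantile normalization (0.59) and ranged from 0.54 to 0.76 without single arrays, and the stricter filter removed Dach2. Sema6c between control muscles passed with the number as a block (-0.28, adjusted p = 0.0252). Neither block changed any other call of the 6 genes. Values that missed the test and changed sign were Hdac4 between control muscles (-0.02 with median centring, -0.13 with the second probe set, -0.08 with array weights, -0.03 to 0.18 without single arrays), Ncam1 between cKO muscles (0.00 with the 75th percentile), Chrna1 in soleus (-0.03 with the 75th percentile, -0.04 with quantile normalization and with weights, -0.04 to 0.09 without single arrays) and Fbxo32 in quadriceps (-0.15 to 0.07 without single arrays). The count of all genes differing between the muscles' changes was 1966, 3570 with weights and 2952 with the animal block. Scaling moved the share of called genes that were higher from 55.7% to 37.5% (75th percentile) and 47.3% (quantile) in quadriceps, from 57.0% to 66.9% (median) and 47.3% (75th percentile) in soleus, from 60.2% to 45.6% (median) and 48.7% (75th percentile) for the difference, from 45.4% to 22.3% (median) and 56.2% (75th percentile) between control muscles, and from 41.3% to 24% (median) and 68.6% (75th percentile) between cKO muscles. Signal over background limits Dach2 alone among the 6.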

Other observations

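Between the muscles, the genes around Hdac4, Dach2 and myogenin were 6 higher and 6 lower in soleus than in quadriceps in controls (15 genes, median 0.02), and 2 higher and 9 lower in cKO (median -0.48), by limma. Of the 19 other denervation and junction genes, 8 were higher and 4 lower in soleus in controls (median 0.19), and 1 higher and 7 lower in cKO (median -0.32). Over all genes the medians were 0.03 and -0.01, and 15.2% were higher and 18.3% lower in soleus in controls, and 11.9% and 16.9% in cKO. Trim63, a gene named after its values were seen, was lower in soleus in controls (-0.56, SE 0.17, adjusted p = 0.0116) and in cKO (-0.89, SE 0.17, adjusted p = 0.000375).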
